A study of Mus musculus with 4 samples.

Results

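The genes described here are 7 members of the pancreatic-type ribonuclease system of the mouse, Rnase4, Ang, Ang4, Rnase1, Rnase6, Rnase10 and the inhibitor gene Rnh1, out of 20832 genes with a named probe on the array. Each was matched to 1 probe through its transcript accession, and 6 of the 7 gave a signal above background. The set was chosen by log2 ratios seen earlier on these same 4 arrays, in which Rnase4, Ang and Ang4 stood out. Their ratios are therefore given as a description, with no test.

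RNase A-type enzymes are small secreted proteins that cleave single-stranded RNA with a catalytic site of paired histidines and a lysine. Angiogenin, the product of Ang, is a weak ribonuclease that promotes vessel growth and, during stress, cuts transfer RNAs in the anticodon loop. Inside the cell these enzymes are held in check by ribonuclease inhibitor, the leucine-rich repeat protein made by Rnh1. All members except Rnh1 lie on chromosome 14 in the same stretch as Ndrg2, and Rnh1 lies on chromosome 7.

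The tissue was cerebral cortex, taken at an age of 3 months from males of the C57BL/6N background, and total RNA was measured. Each of 4 dual-colour Agilent arrays paired a wild-type sample, carrying Cy3 and read in green, with a sample labelled Ndrg2-/-, carrying Cy5 and read in red, from 200 ng of RNA each. Ndrg2 is an astrocyte-rich member of the N-myc downstream regulated family, and the labels used here do not say which part of it was deleted, in which cells, or whether each RNA came from 1 animal. The dyes were never exchanged, so a dye effect of a probe and the genotype cannot be told apart, and p-values measure only the spread between these samples.

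Within the reference order, 52 genes run from Rnase10 to Ndrg2, and 14 of them are members or listed relatives of the RNase A superfamily. Between Rnase12 and Ang lie 7 transfer RNA genes. Ang and Rnase4 begin at the same first base, and the whole of Ang falls within the span of Rnase4. As background, the genes are known to share 5′ exons that are spliced to separate coding exons.

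The start regions in the RefSeq table (GRCm38.p6) are shown because they set out this arrangement, from 250 bases before to 50 bases after each start. All 7 members matched, with 13 starts and 12 distinct sequences. The upstream start of Rnase4 is the only start of Ang, and the 300 bases are identical. Rnase4 also has a downstream start of its own. Capitals mark matches to motifs that were chosen after the letters were seen, searched on both strands: CCAAT (the CCAAT box), GGGCGG (the GC box), TATAAA (the TATA box), TATATA, which can overlap it, and CACGTG (the E-box). The shared start is at chr14:51090827-51091126 (plus strand), the downstream start at chr14:51095750-51096049 (plus strand), and the start of Ang4 at chr14:51773541-51773840 (minus strand).

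Rnase4 and Ang, shared start: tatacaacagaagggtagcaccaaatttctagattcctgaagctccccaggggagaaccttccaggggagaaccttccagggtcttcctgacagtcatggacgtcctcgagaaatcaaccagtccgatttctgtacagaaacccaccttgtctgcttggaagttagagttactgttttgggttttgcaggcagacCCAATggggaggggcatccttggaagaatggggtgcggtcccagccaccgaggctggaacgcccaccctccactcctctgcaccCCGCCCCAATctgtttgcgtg

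Rnase4, downstream start: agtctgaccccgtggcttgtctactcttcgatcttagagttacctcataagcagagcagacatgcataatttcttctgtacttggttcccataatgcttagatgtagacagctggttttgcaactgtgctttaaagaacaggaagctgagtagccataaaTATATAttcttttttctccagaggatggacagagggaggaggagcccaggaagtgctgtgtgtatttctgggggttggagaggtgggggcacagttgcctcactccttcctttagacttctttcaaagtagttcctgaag

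Ang4: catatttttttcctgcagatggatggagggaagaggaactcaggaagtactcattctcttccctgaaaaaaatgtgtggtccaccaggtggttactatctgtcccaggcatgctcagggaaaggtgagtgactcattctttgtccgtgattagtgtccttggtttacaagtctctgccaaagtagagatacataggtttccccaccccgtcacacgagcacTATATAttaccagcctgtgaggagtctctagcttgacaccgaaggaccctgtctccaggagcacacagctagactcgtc

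The shared start held 2 CCAAT matches and 1 GC box, the last overlapping a CCAAT match. Among 32544 distinct promoters of this length, 37.4% held CCAAT and 35.9% held the GC box. The downstream start of Rnase4 and the start of Ang4 each held 1 match to TATATA, present in 5.44% of promoters. It lay 29 bases before the start of Ang4 and 90 bases before the downstream start of Rnase4. None of these 3 sequences held TATAAA, found in 13.6% of promoters, or CACGTG, found in 7.17%.

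The downstream Rnase4 start and the Ang4 start also shared a stretch of sequence. Their best local alignment covered 55 columns with 43 identical bases (78.2%) and 6 gaps. It ran over bases 164 to 217 of the Rnase4 sequence and bases 2 to 51 of the Ang4 sequence. The stretch thus lay at different distances from the starts and did not include the TATATA of Ang4. Among the 66 pairs of distinct member starts, it was the longest alignment between different genes, and the next, between Rnase10 and Rnh1, covered 40 columns. The shared start of Rnase4 and Ang aligned to the Ang4 start over 17 columns.

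The targeted gene was read as a possible check of the labels. The Ndrg2 probe gave log2 ratios (red over green, labelled Ndrg2-/- over wild type) of 0.11, 0.37, 0.40 and 0.38 on arrays 1 to 4. It was higher, not lower, in the samples labelled Ndrg2-/-, at 0.32 ± 0.14 (SD, n = 4, limma adjusted p 0.0173), with the same sign on all arrays. Leaving out replicate 2 (adjusted p 0.0796) or 3 (adjusted p 0.0652), dropping the block (0.0601) or using processed signals (0.0662) ended the call. The Ndrg2 spot signal was 661 to 774 times the local background in green and 625 to 744 times in red, with 2.34% of tested genes brighter. Whether the probe lies inside or outside the deleted part was not tested, so its ratio cannot tell correct labels from exchanged ones. Every direction below rests on the labels. The median spot signal of an array was 94 to 122 in the green channel and 283 to 335.5 in the red one, and no spot was saturated. All 8 cortical neuron markers listed were above background, among them Tbr1 and Slc17a7.

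Rnase4, which encodes a secreted ribonuclease that cleaves after uridine, was far higher in the samples labelled Ndrg2-/-. Its processed signals, which the scanner software corrects for background and dye, were 247.7, 230, 255.8 and 222.8 in the wild-type channel of arrays 1 to 4. In the channel labelled Ndrg2-/- they were 1501, 1348, 1499 and 1320. Every red value lay above every green value, by more than the range within either channel.

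The log2 ratios of Rnase4 computed again from the median pixel signals were 2.34, 2.28, 2.23 and 2.30. The mean was 2.29 ± 0.04 (SD, n = 4), or 4.88-fold, and 5.93-fold from the processed signals. None of the 15757 genes tested had a higher mean ratio, and only Samd4 had a larger one in size, in the other direction. Samd4 lies on chromosome 14 as well. So do the genes ranked 3 to 8 by size, Myh7, Slc7a8, Cdhr1, Dmtn, Lgi3 and Zfhx2os, with ratios of both signs. Arc, on chromosome 15, ranked 9. Of the tested genes, 13% had a smaller spread over arrays than Rnase4. Cortex is a mixture of cells, so more cells that express a gene and more RNA per cell cannot be told apart here, and the same holds for the values below.

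Ang, the gene of angiogenin, went the other way. Its processed signals were 118.9, 134.5, 128.3 and 126 in the wild-type channel and 67.34, 63.02, 61.97 and 63.21 in the channel labelled Ndrg2-/-. The channels did not overlap on any array, and the values within a channel were close to each other.

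Its recomputed log2 ratios were -0.51, -0.62, -0.67 and -0.62, with a mean of -0.60 ± 0.07 (SD, n = 4), or 1.52-fold lower. From the processed signals the mean was -0.99 ± 0.12, or 1.99-fold lower. The size thus depended on the processing, in which background correction and dye normalization both differed, while the sign was the same on all arrays. Ang was dimmer than most genes, since 80.4% of tested genes were brighter, and its red spot signal was 2.36 to 2.62 times the local background.

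Ang4, which encodes the angiogenin paralogue first known as an antimicrobial protein of intestinal Paneth cells, was also lower in the samples labelled Ndrg2-/-. The processed signals were 50.98, 55.71, 59.1 and 49.81 in green and 22.03, 20.51, 20.5 and 23.06 in red. Again the channels did not overlap, and arrays 2 and 3 had the widest gaps.

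The recomputed log2 ratios of Ang4 were -0.47, -0.72, -0.71 and -0.51, with a mean of -0.60 ± 0.13 (SD, n = 4), or 1.52-fold lower. From the processed signals the mean was -1.32 ± 0.19, or 2.5-fold lower. Ang4 lay nearer to the background than Ang, with red signals 1.61 to 1.78 times the local background against 3.35 to 3.90 times in green. Among the 11768 probes that failed the filter on dim signals, the mean processed log2 ratios had a median of 0.02, with the 5th percentile at -0.665 and the 95th at 0.652. Some went farther: the member Rnase6, below background in both channels, had a mean processed log2 ratio of -1.16 ± 0.13 (SD, n = 4). The part of background subtraction in the Ang4 ratio was not tested.

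**Figure D1:**
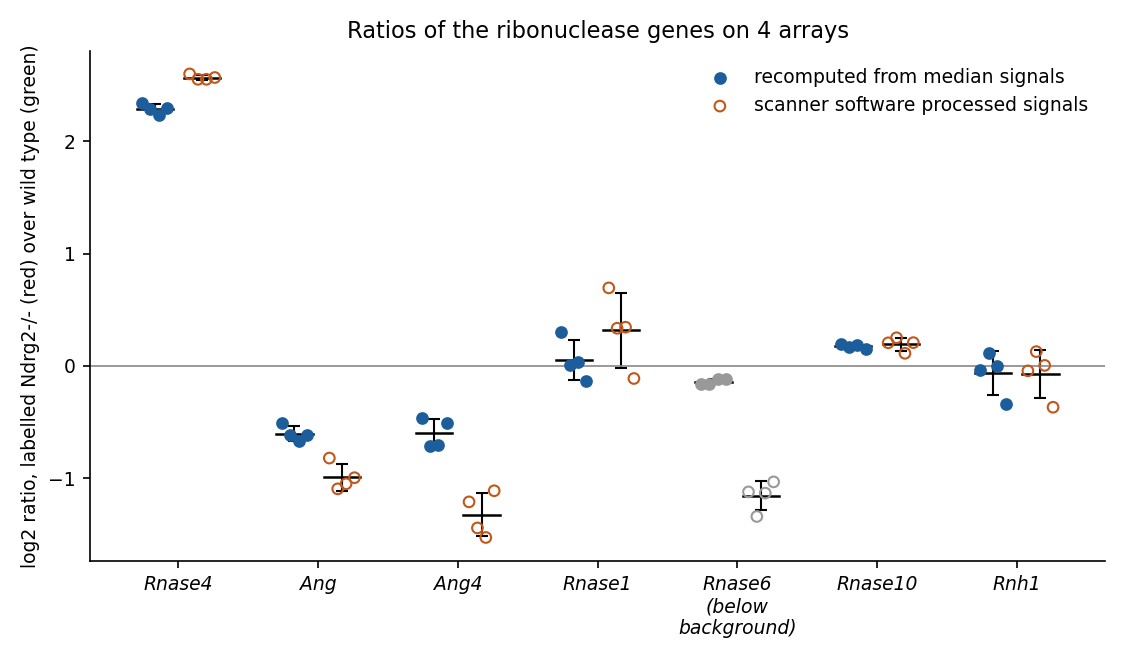
Log2 ratio of the sample labelled Ndrg2-/- (red) over wild type (green) for each gene, 1 point per array (n = 4), with the mean and SD as black bars. Filled points were recomputed from median signals and open points come from the scanner software's processed signals; Rnase6 is grey because it was below background. Rnase4 sits near 2.29, Ang and Ang4 sit near -0.60, and the processed values lie farther from 0 for all of these.

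Within each array, Rnase4 and Ang differed by almost the same amount, 2.85, 2.90, 2.90 and 2.91 on the log2 scale (mean 2.89 ± 0.03, SD, n = 4). These genes share their upstream start, shown above, and their transcripts were in opposite directions on every array. The difference shows unequal change and not that either gene stayed still. Ang and Ang4 differed by -0.04, 0.10, 0.04 and -0.11, a mean of 0.00 ± 0.09, which is no larger than its spread. That closeness depended on the processing: from the processed signals the differences were 0.39, 0.35, 0.48 and 0.12, a mean of 0.33 ± 0.15 with Ang4 the lower on every array, and under median centring the mean was 0.17 ± 0.09. The columns used here give no probe sequence, so binding of the Ang and Ang4 probes to each other's transcripts or to Ang2 was not tested. It is likewise not known which start or exon of Rnase4 its probe reads.

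The likeness of other genes was measured as the root mean square difference of the log2 ratios over the 4 arrays, as a description of the recomputed ratios alone. No gene came near Rnase4. The nearest, the secreted synaptic protein gene Lgi3 on chromosome 14, differed by 1.34. Mbp on chromosome 18 followed at 1.52 and Slc10a1 on chromosome 12 at 1.53. Among the genes most like Ang were Ang4, with a difference of 0.08, and the adhesion gene Cadm4, at 0.13. Among those most like Ang4 were Ang, at the same 0.08, and BC051226, at 0.14. Of the 15757 genes, 11 had a lower mean ratio than Ang and 12 a lower one than Ang4, which includes Ang itself.

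Rnase10 encodes an epididymal relative that lacks the catalytic residues and is known for a role in sperm function. It was above background in both channels on all arrays, with log2 ratios of 0.20, 0.17, 0.18 and 0.15. Its mean was 0.18 ± 0.02 (SD, n = 4), or 1.13-fold higher, and only 1.2% of tested genes had a smaller spread. Under median centring Rnase10 was at 0.34, close to the median of all genes there, 0.28. The levels themselves overlapped between groups, because the arrays differed more than the channels did. On the normalized log2 scale the wild-type channel ran from 8.01 to 8.49 and the channel labelled Ndrg2-/- from 8.20 to 8.65.

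Rnase1, the pancreatic-type ribonuclease that endothelium also secretes, was close to the background. Its spot signals were 1.76 to 2.10 times the local background in green and 1.39 to 1.87 times in red, and the scanner software placed it well above background on all arrays. The log2 ratios were 0.30, 0.01, 0.04 and -0.13, so the arrays did not share a direction. The mean was 0.05 ± 0.18 (SD, n = 4), smaller than the spread, and it took the other sign without replicate 1 (-0.03) and under median centring (-0.29).

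Rnase6 encodes an antimicrobial ribonuclease of monocytes and macrophages. Its probe was printed as 10 spots on each array, and it failed the filter because most spots were not well above background in either channel on any array. The median green signal was 37.5, 37.5, 35.75 and 36 over a local background of 25, 25.5, 24.25 and 22.5. The red signal was 1.07 to 1.11 times its background. Its processed ratio is given above only as that of a probe below background, and no fold is given for it.

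Rnh1, the gene of the ribonuclease inhibitor, had clear signals in both channels, with log2 ratios of -0.04, 0.12, 0.00 and -0.34. The mean was -0.07 ± 0.20 (SD, n = 4), within the spread, and array 4 was lowest. Its sign turned without replicate 4 (0.03). Under median centring it was at 0.21, which was still below the median of all genes there, 0.28. Channel levels overlapped, from 9.32 to 9.52 in the wild-type channel and from 9.18 to 9.44 in the other.

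**Figure D2:**
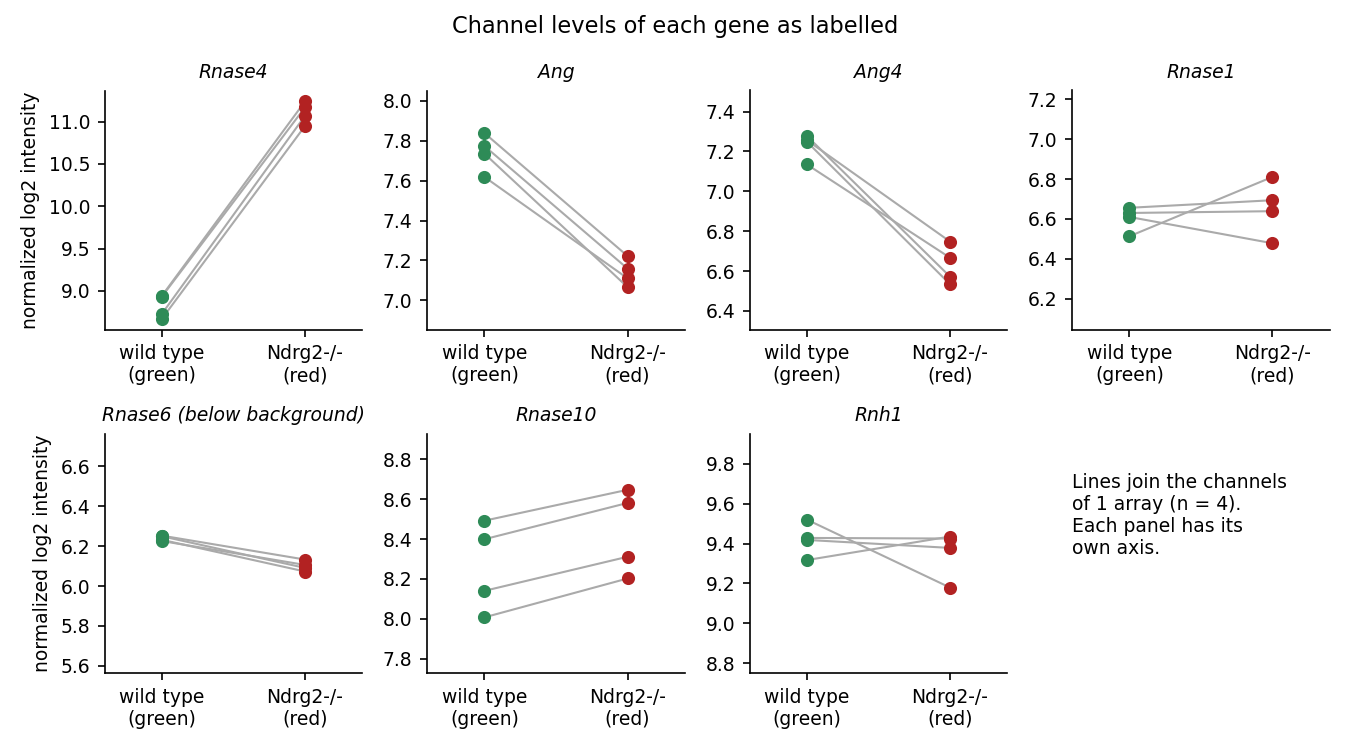
Normalized log2 intensity of each gene in the wild-type (green) and Ndrg2-/- (red) channel as labelled, with a line joining the channels of each of the 4 arrays; each panel has its own axis. The channels are apart for Rnase4, Ang and Ang4, move in parallel for Rnase10 and overlap for Rnase1 and Rnh1.

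Over all genes tested, limma with Benjamini-Hochberg adjustment called 15% at adjusted p 0.05, 9.12% higher and 5.84% lower in the samples labelled Ndrg2-/-. Of the 6 members that passed the filter, 4 were called, Rnase4 and Rnase10 higher and Ang and Ang4 lower. The same 4 had 1 sign on all arrays, as did 42.7% of tested genes. By the criterion of the study's design text, a change of 1.5 fold, here required on all 4 arrays, only Rnase4 passed, against 0.0952% of tested genes. By the mean alone 3 members passed it, and with the processed signals the same 3 passed on all arrays. Since the members were chosen on this contrast, these counts describe them and support nothing. Treating red and green as 4 against 4 separate samples, without the pairing within an array (no replicate block), called 676 genes in place of 2357.

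Of 15 other superfamily genes listed, 11 had a probe and 6 of these failed the filter on dim signals, Ear1, Rnase2b, Rnase9, Rnase11, Rnase12 and Rnase13. Of the 5 tested, limma called 1 lower and did not call 4. The list median was 0.08, beside 0.01 for all tested genes. The called gene, the angiogenin paralogue Ang2, was well above background on all arrays in green but on 1 array in red. It thus passed the filter only through the channel in which it was higher, and its call supports nothing. Its log2 ratios of -0.16, -0.47, -0.33 and -0.33 (mean -0.32 ± 0.12, SD, n = 4, limma adjusted p 0.0142) rest on a red signal that was not well above background on 3 arrays, and the mean was -1.47 from processed signals. The call ended when replicate 2 (adjusted p 0.0638), replicate 3 (adjusted p 0.052) or the block (adjusted p 0.128) was left out. The eosinophil-associated genes Ear2, Ear6 and Ear10 and Rnase2a, whose sequences are much alike, were not called.

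The next list held receptors of angiogenin and genes of the stress response it feeds into. Of 15 genes listed, all tested, 2 rose, 2 fell and 11 were not called, with a median of 0.07. Plxnb2, the plexin that serves as an angiogenin receptor, was at 0.25 ± 0.10 (SD, n = 4, limma adjusted p 0.0193), and Egfr, the epidermal growth factor receptor, at 0.19 ± 0.06 (adjusted p 0.0257). The fallen genes were Eif4g1, the scaffold of the cap-binding complex that angiogenin-made tRNA fragments displace, at -0.19 ± 0.03 (limma adjusted p 0.0201), and Eif2s1, the initiation factor subunit phosphorylated in stress, at -0.17 ± 0.07 (adjusted p 0.0412). With the mean of all its probes Egfr was at 0.09 (limma adjusted p 0.142) and Eif2s1 at -0.10 (adjusted p 0.0931), so neither was called and each value was nearer to 0. The tRNA methyltransferase genes Trdmt1 (0.08 ± 0.16) and Nsun2 (-0.02 ± 0.04), chosen after their values were seen because their products shield tRNAs from cleavage, were not called.

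Of 14 other endoribonucleases listed, 12 were tested, 1 fell and 11 were not called, with a median of -0.05. Rnaseh2b, a subunit of the enzyme that cuts RNA paired with DNA, was at -0.18 ± 0.08 (SD, n = 4, limma adjusted p 0.0388). Over these 3 lists, with 5, 15 and 12 genes tested, limma called 6, beside 15% of all tested genes. Leaving out the block, replicate 2 or replicate 3 gave 0 listed calls, and 676, 452 and 803 calls over all 15757 genes. In those runs 8, 10 and 11 listed genes had an unadjusted p under 0.05, a share not counted over all genes. With processed signals 2 listed genes were called, and Plxnb2 (limma adjusted p 0.0533), Egfr (0.0515), Eif2s1 (0.0587) and Rnaseh2b (0.0707) were not. Under median centring, which moved the median of all genes to 0.28, Eif4g1, Eif2s1 and Rnaseh2b were above 0 yet below that median.

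The members were also read beside the other genes of their stretch of chromosome 14. Of 28 other tested genes within 1 Mb of the cluster or Ndrg2, limma called 6 higher and 5 lower (39.3%), beside 15% of all tested genes. The 5 include Ang2, which passed the filter only through the channel in which it was higher. Its call supports nothing, yet it is part of this share. Leaving out replicates 1, 2 and 3 in turn brought the 11 calls to 5, 2 and 3, and leaving out the block to 6. Over all 15757 tested genes the same runs called 639, 452, 803 and 676, in place of 2357. For the neighbours the median size of the log2 ratio was 0.11 against 0.08 over all tested genes, so most neighbours differed little. Only Supt16, whose product belongs to the FACT chaperone of histones, exceeded Ang in size. It was at 0.72 ± 0.11 (SD, n = 4, limma adjusted p 0.000754). This ranking depended on the processing. From processed signals the neighbour Pnp2 was at -2.54 and Ang2 at -1.47, both lower than Ang (-0.99) and Ang4 (-1.32).

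Neighbours differed in sign as the members did. The purine nucleoside phosphorylase genes Pnp and Pnp2 lie directly before Rnase10 among tested genes and were opposed, at 0.32 ± 0.15 and -0.55 ± 0.11 (limma adjusted p 0.0184 and 0.00156). Parp2, a DNA repair polymerase gene, was at 0.28 ± 0.08, the ciliary gene Rpgrip1 at 0.23 ± 0.05 and the telomerase-associated gene Tep1 at 0.22 ± 0.06. Ttc5, a cofactor gene of the p53 response, was at -0.25 ± 0.06 (limma adjusted p 0.0141), and under median centring at 0.067, below the median of all genes there. In this order Rnase10, Ang, Rnase4 and Rnase1 are consecutive tested genes, at positions -12 to -9 from Ndrg2, and run slightly higher, lower, far higher and close to 0.

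**Figure D3:**
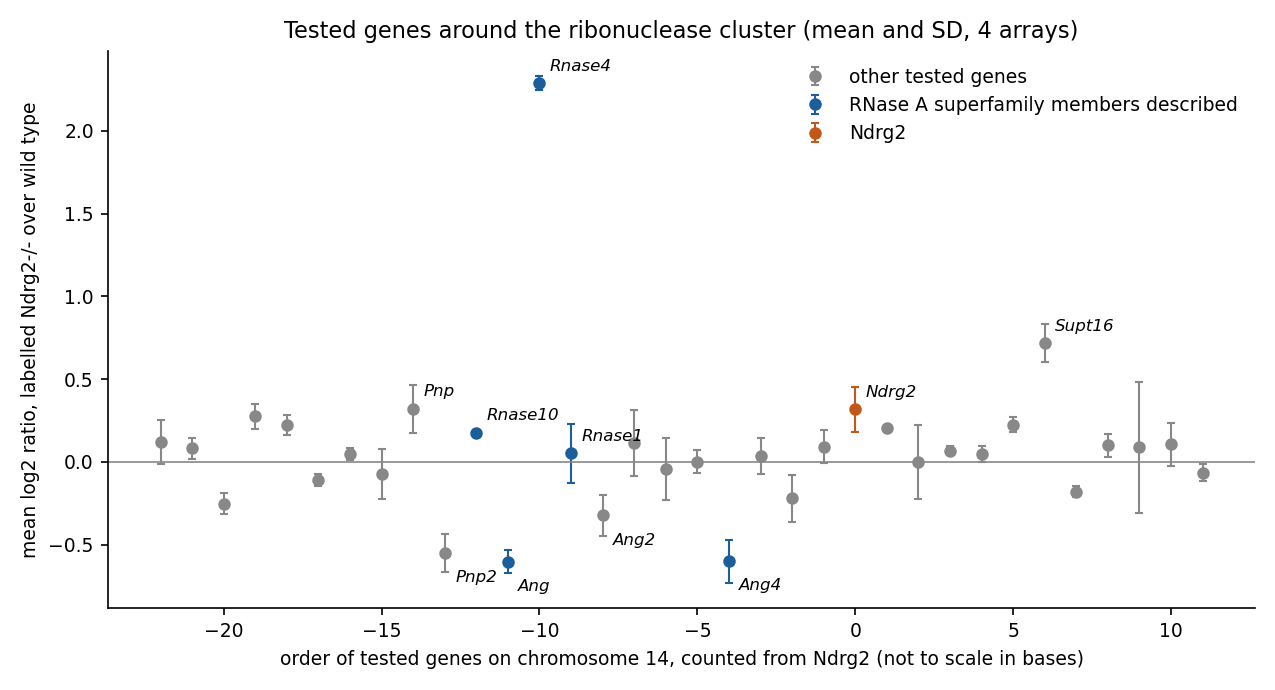
Mean log2 ratio with SD (4 arrays) of the tested genes around the cluster, in their order on chromosome 14 counted from Ndrg2 at 0. The ratios shown are those recomputed from median signals. Rnase4 stands alone at 2.29, Ang and Ang4 are the lowest at -0.60, and most grey neighbours lie close to 0.

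Markers of cell types were set beside the members. All 9 markers of meningeal fibroblasts rose, with a list median of 0.50 and array medians of 0.61, 0.43, 0.23 and 0.69. Their mean normalized log2 level ran from 9.90 to 10.76 in the wild-type channel and from 10.48 to 11.05 in the other, and none was undetected. The log2 ratios of Rnase4 ran from 2.23 to 2.34, and the part of meningeal tissue in its ratio was not tested. Among the 8 cortical neuron markers, limma called Neurod6 higher (0.29 ± 0.04) and Emx1 lower (-0.31 ± 0.16) and did not call 6. Of 7 endothelial markers 1 rose, of 7 microglial and macrophage markers with a probe 3 rose, and of 6 blood markers 1 fell. Astrocyte (6), mural (5) and choroid plexus (4) markers gave 0 calls in limma, with 5, 2 and 2 of them at an unadjusted p under 0.05. Over all tested genes limma called 15%. The share of all genes at an unadjusted p under 0.05 was not counted, so those unadjusted counts cannot be weighed.

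**Figure D4:**
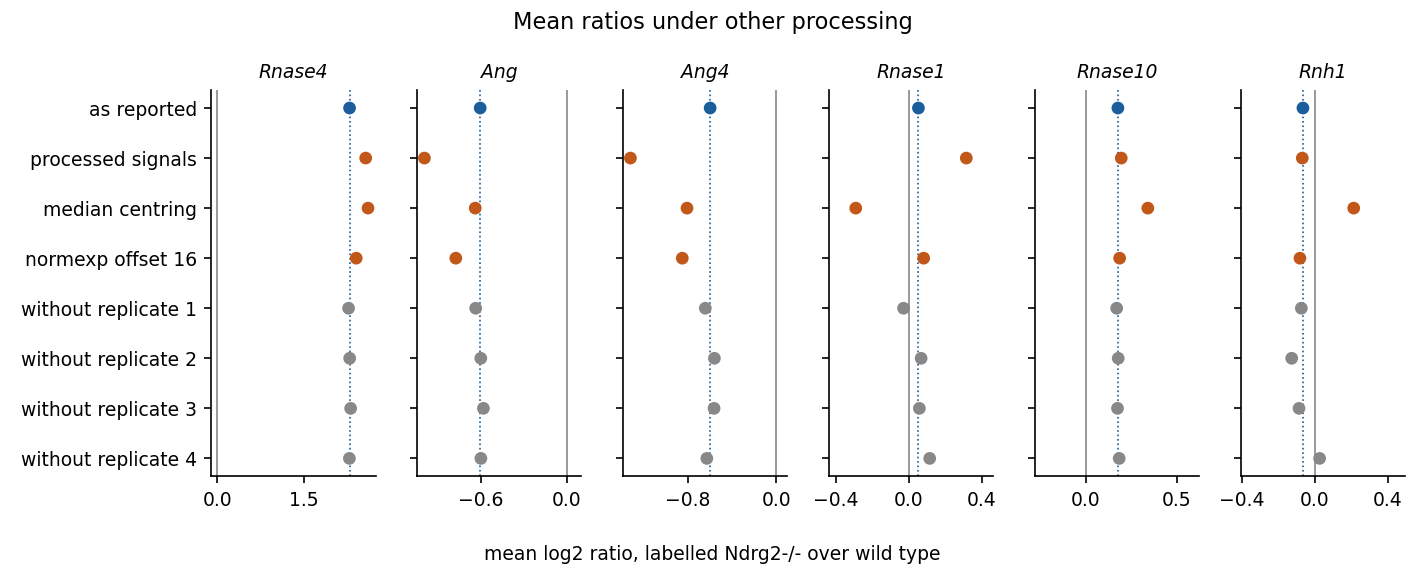
Mean log2 ratio of the 6 detected genes as reported and under other processing or with 1 array left out, each panel with its own axis. Rnase4, Ang, Ang4 and Rnase10 keep their side of 0 in all settings shown, while Rnase1 and Rnh1 cross 0. Ang and Ang4 are lowest at -0.99 and -1.32 from processed signals. Under median centring the median of all genes was 0.28, beside 0.34 for Rnase10.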

How the data were processed

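The authors extracted each array with Agilent Feature Extraction (11.0.1.1 per the file headers, 10.7.3.1 per the submitters' processing notes), with array annotation on mouse build mm9. Per the file headers, the deposited intensity values are median pixel signals with a local background, and processed signals after background subtraction and dye normalization. A log10 ratio of red over green and 0 or 1 flags (other values) are also given per the file headers. The authors' deposited table of log2 ratios matched the red over green processed signals (column medians 0.04, 0.03, -0.04 and -0.04). All arrays came from 1 slide and 1 scan.

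Median signals were corrected with limma 3.58.1 (R 4.3.3; normexp, offset 50) and normalized by loess with 1377 control spots at weight 0, and 802 outlier spots over the arrays were left out. Of 39429 probes, 27661 were kept, those that the scanner software placed well above background in green on every array or in red on every array. Symbols came from transcript accessions (27427 probes), and each of 15757 genes was read from its brightest kept probe. An intercept-only limma model was fitted over all kept probes with Benjamini-Hochberg adjustment. Channel levels were made comparable between arrays by Aquantile. Because both samples of a replicate number share an array, the ratio itself is the block. Starts were aligned with Biopython 1.88 (match 2, mismatch -3, gap -5, extension -2). The fit was tested on simulated data. Members, gene lists and the rule for named genes (all members, called family genes, up to 4 called genes per other list, up to 8 called neighbours, 3 most alike genes, of which not all are reported here) were chosen with earlier results of these data known.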

Additional observations from a re-analysis of the deposited data

Results flagged for a closer look

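Among 13 genes checked over their 4 arrays, 2 had an array farther from the rest than Dixon's critical value for the gap over the range allows, which chance gives in about 1 of 20 such groups. Ndrg2 was at 0.11 on array 1, with the other arrays near 0.4 (gap over range 0.897). Eif2s1 was at -0.27 on array 3 (gap over range 0.858). None of the 6 detected members was among them.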

How the results depend on the processing

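The signs of Rnase4, Ang, Ang4 and Rnase10 were the same in every alternative run, and the size was not. With processed signals or the authors' table the means were 2.57, -0.99, -1.32, 0.32 (Rnase1) and 0.19 (Rnase10). Median centring gave 2.61, -0.81 for Ang4, -0.29 for Rnase1, 0.34 for Rnase10 and 0.21 for Rnh1. The median of all genes was 0.28 there, so the value of Rnase10 was close to that of a typical gene. Offset 16 gave 2.40, -0.77 for Ang and -0.85 for Ang4. With 1 replicate left out, the ranges were 2.27 to 2.31 (Rnase4), -0.63 to -0.58 (Ang), -0.64 to -0.56 (Ang4), -0.028 to 0.11 (Rnase1), 0.17 to 0.18 (Rnase10) and -0.13 to 0.025 (Rnh1).

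Called genes were 1339 with processed signals, 1329 with the authors' table, 12969 under median centring (10643 higher, 2326 lower), 676 without the replicate block and 452 to 1543 with 1 replicate left out. The 1.5-fold criterion passed 15 genes, 47 with processed signals or the authors' table, 359 under median centring, 23 at offset 16, 10 with the mean of a gene's probes and 17 to 22 with 1 replicate left out. Listed genes called were 2 with processed signals or the authors' table, 28 under median centring, 0 without the block (limma, with 8 at an unadjusted p under 0.05), and 0 to 4 with 1 replicate left out. Neighbours called were 21 under median centring, 6 without the block and 2 to 10 with 1 replicate left out. Under median centring Eif2s1 (0.21), Eif4g1 (0.24), Rnaseh2b (0.12), Chd8 (0.24) and Ttc5 (0.067) were above 0 and, like Rnh1, below the shifted median of 0.28. The cause of these differences was not tested beyond what each setting changes. Signal over background limits Ang, Ang4 and Rnase1, and 4 arrays limit the precision.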
